A study of Gallus gallus with 48 samples.

Results

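The genes described here are the 100 liver genes whose levels differed most strongly in opposite directions between altitudes in the 2 kinds of chicken, lower at 3300 m in Tibetan chickens and higher at 3300 m in lowland chickens. They were taken from 9944 genes measured in liver (17108 in the whole table). On group means of log2(FPKM + 1), a is TC minus LTC, b is HLC minus LC, and members are the 100 largest values of the smaller of -a and b. FPKM, the fragments of a gene scaled by its length and by the size of the library, is the unit throughout. Genes needed at least 1 FPKM in at least 3 liver libraries and no group at 0 throughout, 1864 genes had both signs, and OSGIN1 was left out by the rule.

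The 48 libraries were single RNA-seq libraries of brain, heart, liver and lung, 3 for every group and tissue, and each tissue had 4 groups. TC were Tibetan chickens at 3300 m, LTC Tibetan chickens at 670 m, HLC lowland chickens at 3300 m and LC lowland chickens at 670 m. These readings come from the code and the altitude label, and breed, sex, age and time at each altitude are not given. Altitude cannot be told apart from place, feed or day. No label states whether the 3 replicates in a group are different birds, and a p-value here covers the spread among these libraries alone.

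The Tibetan chicken lives at high altitude on the Tibetan Plateau, while lowland breeds meet thin air only when they are moved there. The liver handles nutrients, amino acids, lipids and foreign compounds, makes most plasma proteins, and changes its transcription with feeding, stress and oxygen supply. A gene with opposite altitude differences in the 2 kinds of chicken is a case of an interaction between the kind of bird and its environment. The members are no pathway. They share only the shape of their liver values, and each member's level is a mixture over all cells of the tissue, in which fewer cells of a type and less RNA per cell cannot be told apart.

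Only 4 of the 100 members could be given a symbol, because symbols were at hand for 1183 genes of the table (6.91%). The symbols came from the study's list of genes under positive selection, so named genes are no neutral sample. CNDP2 encodes a cytosolic dipeptidase that splits small peptides into amino acids. IFNLR1 is the ligand-binding chain of the interferon lambda receptor, through which epithelial cells sense type III interferons. EDARADD is the adaptor that links the ectodysplasin receptor EDAR to NF-kappa-B signalling. RAB11FIP4 binds the small GTPase Rab11 and acts in the recycling of endosomes. The other 96 members are known here by their Ensembl identifiers.

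The members were chosen by their liver group means in all 4 groups, so liver values are given as a description with no test. In the members a ranged from -2.58 to -0.53 with a median of -0.84, and b from 0.54 to 2.76 with a median of 0.85. Over all 9944 liver genes the medians were -0.36 for a and -0.15 for b on deposited FPKM. On that scale the bulk of liver genes was lower at 3300 m in Tibetan chickens, and the members lay against the general direction in lowland chickens. This general direction depends on the scaling. The medians of a and b were -0.02 and 0.00 after quantile normalization, and -0.21 and -0.05 with upper quartile scaling. The smaller of -a and b was 1 or more in 13 members. The lowland difference was the larger of the pair in 54 members. At the limit, the last 3 members had 0.539, 0.536 and 0.534, and the next 3 genes 0.532, 0.531 and 0.527, so the 100 have no natural edge.

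**Figure D1:**
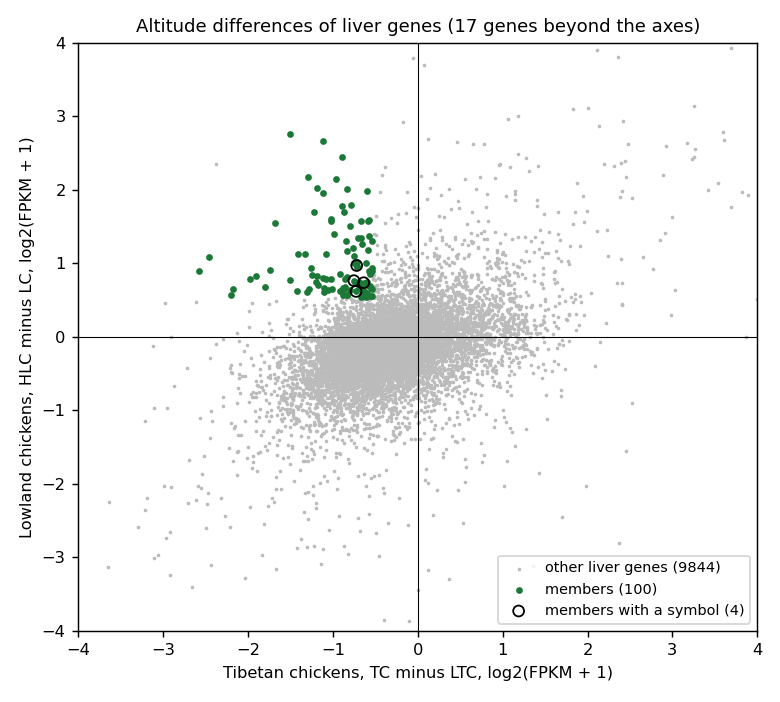
Altitude difference in Tibetan chickens (x axis, TC minus LTC) against that in lowland chickens (y axis, HLC minus LC), both on group means of log2(FPKM + 1), for the 100 members (green), the 4 with a symbol (circled) and the other liver genes (grey). Members fill the upper left part because the rule took them there, and 17 genes lie beyond the axes.

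The members were highest in HLC in 74 cases and in LTC in 26, and lowest in TC in 79 and in LC in 21. The order TC, LC, LTC, HLC from low to high held in 52 members, and TC, LC, HLC, LTC in 17. Levels crossed between altitudes in 89 members, which were higher in Tibetan than in lowland chickens at 670 m and lower at 3300 m. The median of LTC minus LC was 0.58 in the members and -0.02 in all liver genes, and that of TC minus HLC was -1.26 against -0.21. The crossing and these gaps follow largely from the rule, which asks for LTC above TC and HLC above LC. Crossing was not counted over all liver genes. Their medians of group mean FPKM were 3.47 in TC, 6.71 in LTC, 10.7 in HLC and 4.61 in LC, where all liver genes had 4.63, 6.60, 5.81 and 6.58.

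The pattern was seen in every liver library as a mean over the members. The mean log2(FPKM + 1) of the 100 members was 2.35, 2.03 and 2.35 in TC, 3.18, 3.22 and 3.23 in LTC, 3.72, 3.63 and 3.50 in HLC, and 2.67, 2.46 and 2.60 in LC. No group overlapped another, but the rule chose the members on these same libraries, so the gaps between altitudes are built in. The means over all liver genes ran from 2.87 to 3.31, with the 3 TC libraries lowest. TC replicate 2 had the lowest value of its group in 53 members, and HLC replicate 1 the highest of its group in 51.

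**Figure D2:**
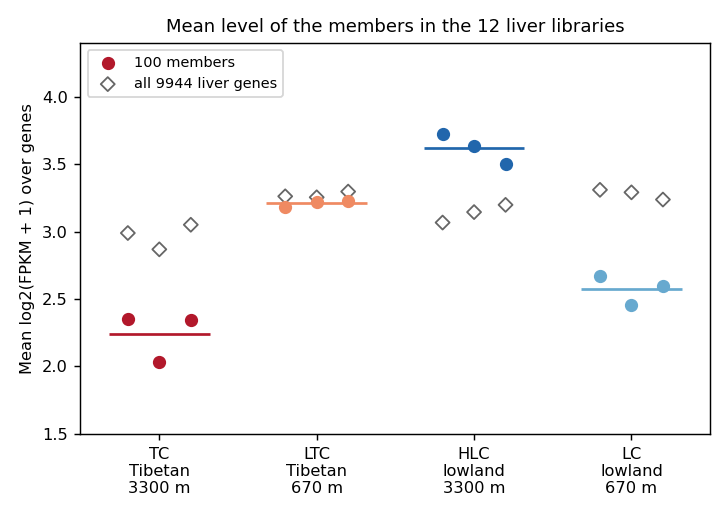
Mean log2(FPKM + 1) of the 100 members (filled points, with the group mean as a line) and of all 9944 liver genes (open diamonds) in each of the 12 liver libraries. The members' means lie between 2.03 and 2.35 in TC and between 3.50 and 3.72 in HLC, while the means over all liver genes stay between 2.87 and 3.31.

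Single members were noisier than this mean. All 3 TC libraries lay below all 3 LTC libraries in 71 members (46.4% of all liver genes), all 3 HLC above all 3 LC in 72 (10.3%), both in 51 (1.89%) and neither in 8. These counts follow from the choice of members. The median SD within groups was 0.406 on the log2 scale in the members and 0.224 in all liver genes. The median FPKM of the members, 6.04, was close to that of all liver genes, 6.05, but only 2 members had a mean of 50 FPKM or more, against 10.2% of liver genes. Within groups the members did not move together more than other genes did. The mean correlation between pairs of members over the 12 deviations from the group means was 0.06, and 0.063 between pairs of all liver genes.

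CNDP2 (ENSGALG00000019514, chromosome 2) stood 39th, with a of -0.75 and b of 0.76. Its liver FPKM was 45.1, 22.0 and 23.3 in TC, 45.2, 45.5 and 56.6 in LTC, 125, 57.1 and 37.2 in HLC, and 58.5, 28.6 and 31.6 in LC. All TC values lay below the LTC values, replicate 1 only just, and the HLC and LC ranges overlapped, with HLC replicate 1 far above its group. It was the only member in 20 lists of liver pathways, under amino acid and urate metabolism, where 9 of 39 genes had a symbol and a liver level. The other lists had at most 4 such genes, so no list can be described as a whole.

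IFNLR1 (ENSGALG00000004231, chromosome 23) stood 47th, with a of -0.72 and b of 0.97. Its liver FPKM was 1.36, 0.351 and 0.182 in TC, 1.39, 1.47 and 1.86 in LTC, 1.69, 1.97 and 3.71 in HLC, and 1.03, 1.05 and 0.202 in LC. Neither altitude pair overlapped, but TC replicate 1 was only just below LTC replicate 1. These are low levels, where log2(FPKM + 1) understates a change.

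EDARADD (ENSGALG00000014369, chromosome 3) stood 64th, with a of -0.64 and b of 0.74. Its liver FPKM was 3.87, 3.18 and 4.62 in TC, 5.87, 6.34 and 7.55 in LTC, 5.45, 6.65 and 5.83 in HLC, and 4.15, 2.13 and 3.53 in LC. The groups separated at both comparisons of altitude, with LTC and HLC overlapping each other. RAB11FIP4 (ENSGALG00000003227, chromosome 18) stood 70th, with a of -0.73 and b of 0.62. Its liver FPKM was 5.34, 2.60 and 2.69 in TC, 7.26, 6.28 and 5.37 in LTC, 7.99, 7.87 and 6.19 in HLC, and 5.15, 3.52 and 4.73 in LC. TC replicate 1 was just below LTC replicate 3, and HLC lay above LC throughout.

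**Figure D3:**
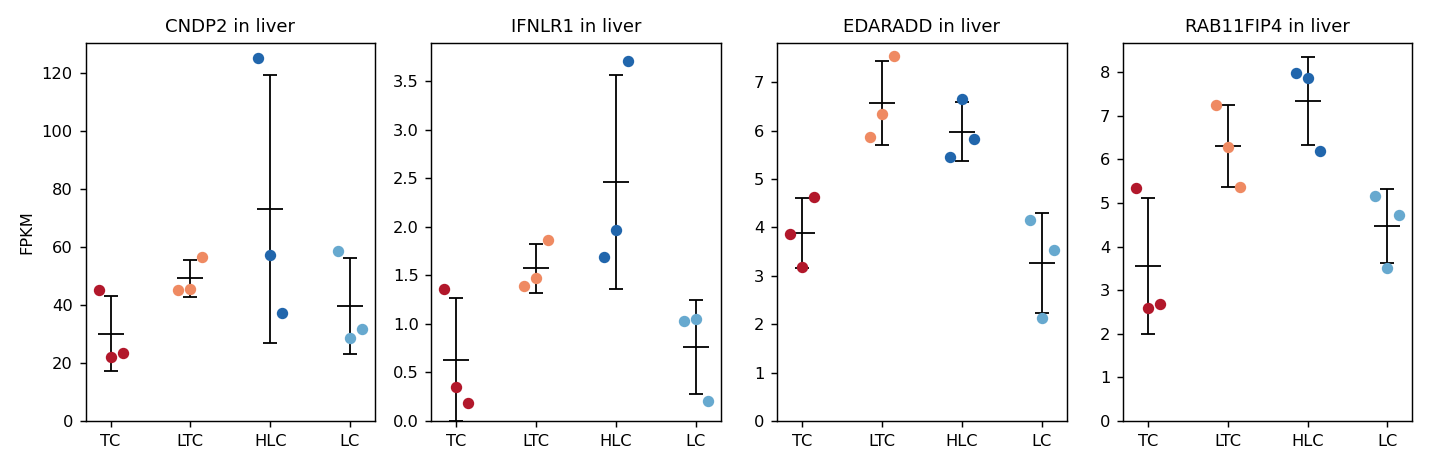
Liver FPKM (y axis, linear from 0) of the 4 members with a symbol in TC, LTC, HLC and LC, 3 libraries a group, with the mean and SD in black (bars end at 0). HLC replicate 1 of CNDP2 (125 FPKM) stands above the other 11 libraries, and HLC lies above LC in the other 3 genes.

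The 2 leading members have no symbol. ENSGALG00000007814 stood first, with a of -1.68 and b of 1.54. Its liver FPKM was 0.374, 0.238 and 6.30 in TC, 2.41, 5.47 and 17.5 in LTC, 23.7, 23.7 and 5.79 in HLC, and 6.0, 4.56 and 3.30 in LC. Its groups overlapped at both comparisons, since replicate 3 stood apart in TC, LTC and HLC. Outside liver it was at most 0.259 FPKM in any library. ENSGALG00000000619 stood second, with a of -1.50 and b of 2.76, the largest of the set. Its liver FPKM was 1.51, 2.03 and 0.578 in TC, 8.76, 3.63 and 5.05 in LTC, 95.5, 26.8 and 32.8 in HLC, and 3.06, 6.20 and 9.02 in LC. Here neither altitude pair overlapped.

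Some members were singled out after their values were seen. The 2 most abundant were ENSGALG00000010434, with mean liver FPKM of 117 ± 31.4 in TC, 174 ± 33.7 in LTC, 311 ± 80.6 in HLC and 123 ± 48.8 in LC (SD, n = 3), and ENSGALG00000003578, with 41.5 ± 1.57, 91.2 ± 25.1, 93.7 ± 39.4 and 51.3 ± 15.4 in the same order. The lowest a, -2.58, belonged to ENSGALG00000025860. In 1 member the choice of scale decided the sign of b. ENSGALG00000016761 had 1.97, 4.74 and 173 FPKM in LC and 28.4, 15.7 and 22.4 in HLC, so it was higher in HLC on log2 means and higher in LC on FPKM means. ENSGALG00000006324 rested on 1 HLC library at 21.3 FPKM, the other 2 being 3.5 and 3.0, and LC ranged from 2.37 to 4.91. These 2 were the only members that lost a direction when a library was left out, and 98 kept both.

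The list itself changed more than the directions did. Kept directions were likely beforehand, because the rule took the genes with the widest margins in both. Taking the 100 again without 1 library in turn returned between 75 (without HLC replicate 1) and 90 of the members, and 34 returned every time. After quantile normalization, which gives all libraries the same distribution and brought the liver medians of a and b to -0.02 and 0.00, all 100 kept both directions and 53 were chosen again.

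Of the hepatocyte markers with a symbol, FTCD had 53.9 to 130 FPKM in liver and at most 0.381 elsewhere, and HAAO 27.1 to 52.3 and at most 0.942. SLC25A47 had a median of 8.27 FPKM in liver (1.09 to 22.6) and 13.5 in brain (8.29 to 17.4), and OTC was at 0 in all 12 liver libraries. The gene listed as FABP1 (ENSGALG00000004141) is placed on chromosome 23 in the source of the symbols and on chromosome 4 under that symbol in RefSeq, so its identity is uncertain. It had 13000 to 16100 FPKM in TC, against 3280 to 4800 in LTC, 3800 to 4230 in HLC and 4090 to 4480 in LC. It made up most of the summed level of the 5 hepatocyte markers of 26 with a symbol. It was highest in the TC group, in which the members were lowest. FTCD and HAAO are given over all 12 liver libraries only, so this rests on 1 gene of uncertain identity. The 4 of 13 T cell markers summed to 3.90 to 6.69 in TC, 6.73 to 12.7 in LTC, 4.64 to 6.28 in HLC and 10.2 to 13.6 in LC. The 3 of 14 endothelial markers summed to 48.1 to 94.7, 36.9 to 45.9, 28.6 to 47.3 and 31.0 to 41.1 in that order, and COL6A2 with SPARC (2 of 12 stellate and fibroblast markers) to 41.0 to 52.6, 93.3 to 110, 44.4 to 55.8 and 41.7 to 65.1. No macrophage, erythrocyte or thrombocyte marker had a symbol. Their part in the members' values was not tested. Over the 48 libraries the columns summed to 452395 to 896066 FPKM, 8498 to 11325 genes reached 1 FPKM, no 2 libraries were identical, and depth is unknown.

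The members were less widely expressed than liver genes in general. They reached the level filter in brain in 77 cases (91.9% of all liver genes), in heart in 71 (91.4%) and in lung in 85 (96.0%), and 63 did so in all 4 tissues. The highest median FPKM was in lung for 38 members, in liver for 29, in brain for 25 and in heart for 8, where all liver genes had 48.7%, 14.7%, 26.2% and 10.3%. The liver median was 10 times or more that of every other tissue in 9 members (3.37% of all liver genes). ENSGALG00000027642 was listed at 0 in all 12 lung libraries. Scaling between tissues is not known, so these levels are a description.

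The other tissues were not used by the rule, but they may not be independent of it. Deviations from the group mean were compared between libraries of different tissues that carry the same group code and number. Between liver and lung, and between liver and brain, each of the 12 libraries correlated best with its own number of the 3 in its group, with median correlations across genes of 0.215 and 0.209, against -0.085 and -0.102 for other numbers. Between heart and liver this held for 10 of the 12 heart libraries. The values below 0 for other numbers follow from centring each group on its mean and add nothing. Centred on the tissue mean and compared with all 12 libraries of another tissue, not every library matched its own number best. Liver TC replicates 1, 2 and 3 all matched brain HLC replicate 1. The labels do not say whether a number marks a bird. Genes are not independent replicates, and no p is given for these correlations.

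The opposite signs were then counted in the tissues that did not choose the members. In lung, 34 of the 85 members tested (40%) were lower in TC than LTC and higher in HLC than LC, against 23.6% of all lung genes and 28.7% of the other genes with those signs in liver. After quantile normalization these shares were 32.9%, 17.7% and 20.7%. Without any 1 lung library they were 35.3% to 45.2%, 21.4% to 27.1% and 25.3% to 33%, all highest without TC replicate 1. In heart the members' share of 66.2% (47 of 71) was near the background of 63.8%, which was itself high on deposited FPKM, with heart medians over all genes of -0.24 in Tibetan and 0.22 in lowland chickens. After quantile normalization the heart shares were 36.6% and 27.2%. There 26 members had the liver signs and 24 had both signs reversed, as did 31.4% of all heart genes. In brain 18 of 77 members (23.4%) had the signs, against 24.3% of all genes. Without any 1 brain library the members' share was 22.1% to 29.9% and that of all genes 15.2% to 29.1%, with no steady order. The shares were 24.7% and 15.2% without TC replicate 1, and 29.9% and 20% without HLC replicate 1. They were 22.1% and 29.1% without TC replicate 2, and 22.1% and 26% without HLC replicate 3.

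**Figure D4:**
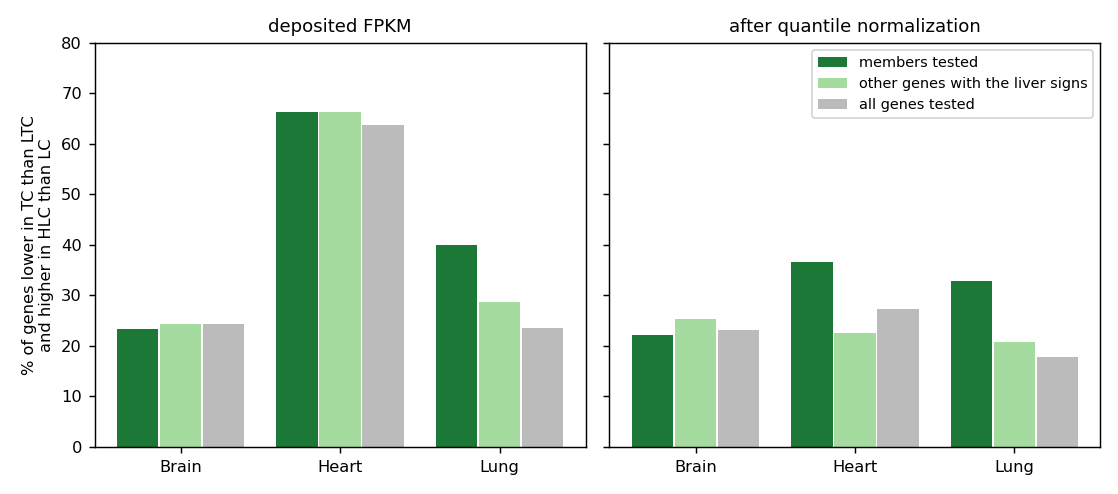
Share of genes (%, from 0) lower in TC than LTC and higher in HLC than LC in brain, heart and lung, for the members tested, for other genes with those signs in liver, and for all genes tested, on deposited FPKM (left) and after quantile normalization (right). Members stand above all genes in lung on both scales (40% against 23.6%, and 32.9% against 17.7%), and in brain the shares are 23.4% and 24.3% on deposited FPKM.

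Few members passed the interaction test outside liver. The interaction, TC minus LTC minus the same difference in lowland chickens, was fitted with limma on log2(FPKM + 1) in each tissue and adjusted over all genes tested there. In lung 1 of 85 members passed, negative (0.509% of all genes, 0.259% negative), and 22 (25.9%) had an unadjusted p under 0.05, against 15.1% of all genes. In heart 4 of 71 passed, all negative as in liver (2.79%, 2.60% negative), and 22 (31%) had an unadjusted p under 0.05, against 26.3% of all genes. In brain none of 77 passed (0.0344%), and 11 (14.3%) had an unadjusted p under 0.05, against 6.47%. The median interaction of the members was -0.28 in lung, -0.62 in heart and 0.04 in brain, against -0.09, -0.47 and -0.01 over all genes tested there. After quantile normalization it was -0.20 in lung and -0.12 in heart, against 0.00 and 0.03.

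ENSGALG00000000187 carried the lung call and was named after its values were seen. Its lung FPKM was 0.458, 0.461 and 0.646 in TC, 6.51, 6.14 and 3.40 in LTC, 6.03, 4.56 and 3.55 in HLC, and 0.526, 1.51 and 3.69 in LC. All TC libraries lay below all LTC libraries, and HLC overlapped LC at LC replicate 3. The log2 interaction was -3.13 (standard error 0.495, limma adjusted p = 0.0286), with a Tibetan difference of -2.02 (adjusted p = 0.00692) and a lowland difference of 1.10 (adjusted p = 0.105). The call was lost without lung HLC replicate 2, HLC replicate 3, LC replicate 2, LTC replicate 1, LTC replicate 2 or any single TC library. Where it was lost, 9 to 38 of all lung genes passed, against 59 in the main fit. Other members passed without HLC replicate 1 (4, all negative), HLC replicate 2 (2, both negative) or LC replicate 1 (1, positive). The shares of all lung genes in these fits were 0.709%, 0.328% and 0.726%. In brain TC was 0.334, 0.327 and 0.237 and LTC 3.68, 4.01 and 2.94, the only brain call among the members for Tibetan chickens (-1.80, standard error 0.318, limma adjusted p = 0.0391, against 0.379% of all genes called and 0.0603% called lower). A fit with the replicate number as a block over all 4 brain groups lost this call, with 0 members and 7 genes past the threshold, against 1 and 44. It was also lost without LC replicate 1, LC replicate 2 or any single TC or LTC library of brain, where 0.0173% to 0.225% of all genes passed. In liver TC was 0.156, 0.409 and 0.505, and LC 1.64, 2.29 and 7.87. LC replicate 3 was the highest of its group in all 4 tissues, and TC was at most 0.646 FPKM in every library except heart TC replicate 2, at 2.25.

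The 4 heart calls were ENSGALG00000012374, ENSGALG00000027201, ENSGALG00000022430 and ENSGALG00000025860. ENSGALG00000012374 had 3.18, 1.02 and 2.10 FPKM in heart TC, 5.58, 6.07 and 5.58 in LTC, 6.14, 5.4 and 4.26 in HLC, and 3.27, 2.26 and 2.61 in LC. Neither altitude pair overlapped, and the interaction was -1.94 (standard error 0.353, limma adjusted p = 0.036). It was lower at altitude in Tibetan chickens in lung too (-0.55, limma adjusted p = 0.018), where its lowland difference was 0.06. ENSGALG00000027201 had an interaction of -2.36 (standard error 0.452, limma adjusted p = 0.036), with heart values of 0.325 to 0.776 in TC and 1.73 to 5.26 in LTC.

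ENSGALG00000022430 and ENSGALG00000025860 had heart interactions of -2.86 (standard error 0.647, limma adjusted p = 0.0436) and -3.39 (standard error 0.805, limma adjusted p = 0.0478). ENSGALG00000025860 had 6.02, 14.7 and 5.87 FPKM in heart TC, 24.5, 23.9 and 26.3 in LTC, 4.66, 32 and 31.7 in HLC, and 5.67, 3.21 and 3.33 in LC. HLC replicate 1 therefore lay among the LC libraries. The same library number was low in every tissue, at 2.93 FPKM in liver, 22.6 in lung and 3.88 in brain, where HLC replicates 2 and 3 were 29.9 and 37.5, 87.5 and 93.9, and 19.2 and 54.3. ENSGALG00000022430 had the same shape. Its HLC libraries had 5.30, 23.2 and 27.2 FPKM in liver and 30.9, 66.5 and 83.9 in lung. They had 8.09, 24.1 and 24.0 in heart, and 6.16, 18.2 and 36.2 in brain. Not every number kept its place. TC replicate 2 was the lowest TC library of both genes in liver, lung and brain, but the highest in heart. It had 2.87, 9.17, 1.87 and 14.7 FPKM of ENSGALG00000025860 in that order, and 3.22, 7.1, 2.0 and 15.3 of ENSGALG00000022430.

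**Figure D5:**
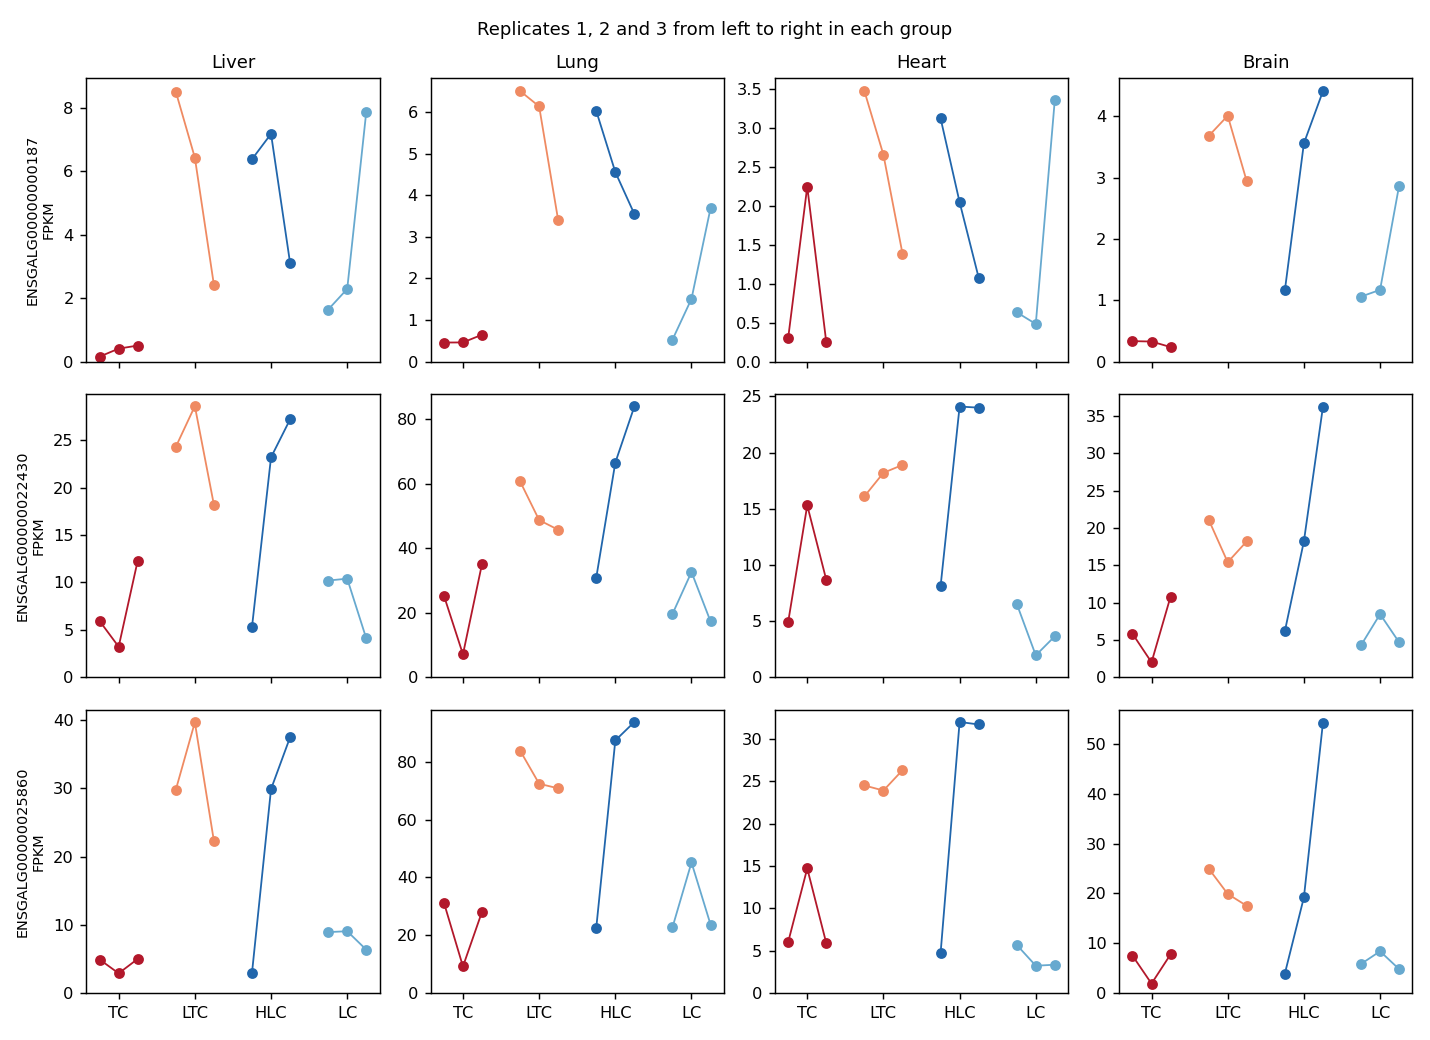
FPKM (y axes, linear from 0) of 3 members in liver, lung, heart and brain, with replicates 1, 2 and 3 of each group joined from left to right. In ENSGALG00000025860, HLC replicate 1 is the lowest HLC library in all 4 tissues (2.93, 22.6, 4.66 and 3.88 FPKM), and in ENSGALG00000000187, LC replicate 3 is the highest LC library in all 4.

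Across the members such a match was uncommon. The deviations over the 12 same-numbered libraries correlated at 0.8 or more with liver in 6 of 85 members in lung (3.48% of all genes), in 3 of 77 in brain (3.34%) and in 1 of 71 in heart (1.07%). The 6, 3 and 1 came from 8 members, among them all 3 of the plot by library number. The members' median correlation was 0.189 in lung, 0.056 in brain and 0.102 in heart, against 0.23, 0.189 and 0.186 over all genes.

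Heart calls depended on few libraries. Without heart HLC replicate 2, LC replicate 2, LTC replicate 1, LTC replicate 3 or TC replicate 3, 0 members passed. Without HLC replicate 1 or LTC replicate 2 it was 1, and without TC replicate 2 it was 9, of which 1 was positive. The calls over all heart genes moved too, from 289 to between 0 (without HLC replicate 2) and 18 (without LC replicate 2) where 0 or 1 member was left, and to 422 without TC replicate 2. Heart TC replicate 2 correlated at 0.012 with its own number in brain, -0.011 in lung and 0.069 in liver, where its own number was the best match. After quantile normalization 0 members passed in heart.

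The altitude differences were also tested one at a time. In lung, 18 members passed for Tibetan chickens (12.1% of all lung genes), 12 lower at 3300 m, by -2.02 to -0.51, and 6 higher, by 0.56 to 1.42. The background was 8.66% lower and 3.46% higher. After quantile normalization 8 members were called lower and 7 higher, against 575 lower and 590 higher over all lung genes. Of the 12 lower, 6 had a lowland difference above 0, as did 4 of the 6 higher. Over all lung genes tested, 5772 of 11601 had a lowland difference below 0, so the 12 did not stand apart in this. Without LTC replicate 2, TC replicate 2 or LTC replicate 3 the 18 became 6, 8 and 11, and the share over all lung genes 3.07%, 4.06% and 4.34%. Without TC replicate 1 it was 13 members, with 7.3% of all genes. ENSGALG00000010434, the most abundant member, was higher at 3300 m in Tibetan lung (1.00, limma adjusted p = 0.0126), the opposite of its liver sign.

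In lowland lung, 2 members passed (3.89%), both lower at 3300 m (2.52%), against their liver sign. ENSGALG00000005957 had 0.652, 0.303 and 0.515 FPKM in lung HLC and 2.18, 2.46 and 3.58 in LC (-1.32, standard error 0.277, limma adjusted p = 0.0257), where its liver HLC libraries had 23.0, 12.3 and 12.8 and its liver LC libraries 1.78, 1.58 and 1.45. It was lower in Tibetan lung as well (-1.89, limma adjusted p = 0.00371). ENSGALG00000001583 fell in lung by 0.65 in lowland chickens (limma adjusted p = 0.0491) and by 0.57 in Tibetan chickens (limma adjusted p = 0.04). Both calls were lost without any single HLC library, LC replicate 1 or LC replicate 3, and ENSGALG00000005957 alone was kept without LC replicate 2, TC replicate 2 or any LTC library. Where both were lost, 1.34% to 2.88% of all lung genes passed. Other members passed as higher at 3300 m without HLC replicate 1 or LC replicate 2 (2 each) and without HLC replicate 3 or LC replicate 3 (1 each). The shares of all lung genes in these fits were 2.25%, 4.12%, 2.88% and 1.8%. In heart no member passed for Tibetan chickens (0%) or lowland chickens (0.0386%), and in lowland brain none did (0.146%). At an unadjusted p under 0.05 these were 17, 12 and 17 members (23.9%, 16.9% and 22.1%), against 18.3%, 12.7% and 13.4% of all genes.

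None of the 4 members with a symbol passed a test outside liver. IFNLR1 came closest, in lung, at 3.08, 1.47 and 0.875 FPKM in TC, 4.25, 2.27 and 5.25 in LTC, 4.63, 3.64 and 5.42 in HLC, and 2.69, 2.27 and 1.45 in LC. HLC lay above LC throughout, while TC and LTC overlapped, and the interaction was -1.67 (standard error 0.431, limma adjusted p = 0.109). Its median was 2.88 FPKM in lung, 1.37 in liver, 0.413 in heart and 0.338 in brain. In heart its interaction was -0.91 (limma adjusted p = 0.221), and it missed the level filter in brain.

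CNDP2 was highest in liver, with a median of 45.1 FPKM, against 23.9 in lung, 12.7 in brain and 12.3 in heart, and the brain and heart ranges overlapped. Its interaction was -0.46 in lung (limma adjusted p = 0.262), -0.43 in brain (0.767) and -0.32 in heart (0.662, above 0 after quantile normalization). EDARADD had medians of 5.03 FPKM in liver, 3.91 in lung, 1.95 in brain and 0.377 in heart, and interactions of -0.73 in brain (limma adjusted p = 0.754) and 0.31 in lung (0.49). RAB11FIP4 was highest in brain, at a median of 9.53 FPKM, against 5.36 in liver, 2.33 in lung and 0.477 in heart, with interactions of 0.01 in brain (limma adjusted p = 0.995) and -0.27 in lung (0.736). Both missed the level filter in heart.

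OSGIN1, a stress-responsive growth inhibitor that the rule left out, would have led the list, with a of -2.38 and b of 2.34. Among named liver genes 148 of 756 (19.6%) had both signs, against 18.8% of all liver genes. The nearest named genes outside the 100 were BBS2, a component of the BBSome of cilia, at rank 108 (a of -1.05, b of 0.52) and FRYL at rank 111 (a of -0.79, b of 0.51).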

How the data were processed

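RNA was extracted with TRIzol and sequenced from Illumina TruSeq libraries, 12 of each of brain, heart, liver and lung. Per the labels the authors used TopHat and Cufflinks 2.2.1 on the galGal4 assembly, and deposited FPKM per Ensembl gene; read filters, strand handling and annotation release were not given in the sources used here. FPKM keeps no read counts, so depth is unknown, no counting error can be given and no count model was used.

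Symbols and chromosomes came from the readable part of the study's supplementary gene list, matched by Ensembl identifier. The study describes that list as its genes under positive selection, so a gene outside it could seldom be named. The members and gene lists were chosen with earlier results of these data known. Liver contrasts chose the members and were not tested. In each other tissue the genes that reached 1 FPKM in 3 or more of 12 libraries were fitted with limma 3.58.1 in R 4.3.3 on log2(FPKM + 1), with 1 mean per group and a trend. Tests were 2-sided, with Benjamini-Hochberg adjustment over the genes of that tissue and a threshold of 0.05. The code was tested on simulated data.

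Members with a symbol were named in the order of their values, with the 2 leading members without one, and tests with 5 or fewer calls had each gene named. Alternatives were a pseudocount of 0.1, quantile normalization, upper quartile scaling, no filter, a mean FPKM of at least 5, no trend, the replicate number as a block, group medians for the choice of members, and leaving out each library. Same-numbered libraries of 1 tissue deviated together, with all correlations over 0.1, only in brain TC with LTC (0.373 to 0.452). In brain HLC with LC the correlations were -0.335 to -0.0844. The main fits used no pairing. The replicate block added effects of the number that all 4 groups share, in brain, heart and lung alike, so it does not pair TC with LTC alone.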

Additional observations from a re-analysis of the deposited data

Results flagged for a closer look

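In liver, IFNLR1, EDARADD and RAB11FIP4 were lower in every Tibetan library and higher in every lowland library at 3300 m than at 670 m. The Tibetan gap was narrow for IFNLR1, at 1.36 FPKM in TC replicate 1 and 1.39 in LTC replicate 1. It was narrow for RAB11FIP4 too, at 5.34 in TC replicate 1 and 5.37 in LTC replicate 3. The difference between the altitude differences was -1.69 for IFNLR1, -1.37 for EDARADD and -1.34 for RAB11FIP4 on the log2 scale. The rule chose these genes for it, and it was not tested.

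Outside liver, 5 members passed limma's interaction test between the altitude differences of Tibetan and lowland chickens. These were 4 of 71 tested in heart (2.79% of all heart genes) and 1 of 85 in lung (0.509% of all lung genes). In heart the value was -1.94 for ENSGALG00000012374, -2.36 for ENSGALG00000027201, -2.86 for ENSGALG00000022430 and -3.39 for ENSGALG00000025860, and in lung it was -3.13 for ENSGALG00000000187. In the last 3, the same library numbers were high or low in several tissues. No heart call was kept with quantile normalization or upper quartile scaling, and the lung call was lost without any single TC library.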

How the results depend on the processing

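Quantile normalization chose 53 of the 100 members again. A mean FPKM of at least 5 left 57 measured, all 57 chosen again with both directions. That filter only removes genes and leaves a and b unchanged, so this outcome was fixed beforehand and shows nothing about the members. Other settings chose 71 to 76 again, and leaving out a library 75 to 90, with 99 to 100 keeping both directions. The 1 brain call in Tibetan chickens became 0 with no filter, a mean FPKM of at least 5 or the replicate block. The 4 heart interaction calls became 0 with quantile normalization, upper quartile scaling, no filter or the replicate block, and 2 with a mean FPKM of at least 5. Over all heart genes 289 calls became 24, 19, 36 and 20 under the first 4 of these. Over all lung genes 59 interaction calls became 34 with no filter and 9 with the block. With a mean FPKM of at least 5, Tibetan calls over all genes went from 44 to 21 in brain and from 0 to 23 in heart. The 1 lung interaction call became 2 with a pseudocount of 0.1 and 0 with a mean FPKM of at least 5 or the replicate block. The 2 lowland lung calls became 1 with quantile normalization, no filter or the replicate block, and 0 with a mean FPKM of at least 5. Over all lung genes 451 lowland calls became 379, 383, 319 and 313 in that order. With a mean FPKM of at least 5 the lost brain and lung calls, and 2 of the 4 heart calls, were of genes that no longer entered the test. The other causes were not tested.

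Leaving out each library gave 0 to 1 calls in brain for the interaction, Tibetan and lowland chickens alike, 0 to 9 in heart for the interaction and 0 to 1 for Tibetan or lowland chickens. The share of all genes called ran from 0.0173% to 0.899% in Tibetan brain and from 0% to 4.82% in the heart interaction. In lowland brain, 3 to 154 genes were called higher and 0 to 40 lower, and in the brain interaction 0 to 4 and 0 to 2. Tibetan heart had 0 genes called higher and 0 to 78 lower, and lowland heart 0 to 11 higher and 2 to 10 lower. In lung, leaving out each library gave 0 to 5 members for the interaction, 6 to 20 for Tibetan and 0 to 3 for lowland chickens. The shares of all lung genes moved too, over 0.0778% to 0.726%, 3.07% to 13.1% and 1.34% to 4.3% in that order. The brain interaction of RAB11FIP4 was -0.030 with quantile normalization and -0.33 to 0.21 without single libraries. The heart interaction of CNDP2 was 0.10 with quantile normalization, 0.11 with upper quartile scaling and -0.58 to 0.047 without single libraries. With the replicate block 14 members passed in Tibetan lung (8.79% of all lung genes), against 18 (12.1%) without it. With all libraries, the members' counts for the brain interaction, heart Tibetan, heart lowland and brain lowland tests stayed at 0 in every setting. No read depth is known, and 3 libraries per group limit every test.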
